A study of Populus tomentosa with 4 samples.

Results

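The loci described here are the receptor-like kinases among the genes predicted as targets of microRNAs in Chinese white poplar (Populus tomentosa). They were taken from the authors' deposited table as every distinct target locus whose Swiss-Prot description held both the word receptor and the word kinase, in any case. This rule gave 635 of the 10305 predicted loci, or 6.16%, and 7.78% of the loci that had a description. The descriptions of 2140 of the 10305 loci were empty, so receptor kinases among those were not counted. Receptors whose description lacks the word kinase, such as 3 loci named systemin receptor and 2 named phytosulfokine receptor 2, were left out by the same rule.

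Small RNA was sequenced from shoot tips, also labelled SAM for shoot apical meristem, and from the leaves around them, with 2 libraries per tissue and 4 in all. Both tissues came from healthy trees 20 years of age that grew outdoors, with no treatment and no genotype named in the labels. A shoot tip holds young leaves and stem as well as the meristem, so it is not a sample of meristem cells alone. Whether each library stands for a separate tree is not in the labels, and the authors' FDR may measure technical spread alone. No messenger RNA was measured in the table used here. The loci therefore have no level of their own, and every value below is that of a microRNA predicted to target them.

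Receptor-like kinases are plant membrane proteins with an outer domain that binds a peptide, sugar or cell wall fragment and an inner domain that phosphorylates other proteins. In Arabidopsis they are known for setting the size of the shoot meristem (CLAVATA1 and its relatives), for sensing brassinosteroids (BRI1) and for detecting microbes (FLS2 and EFR). They are named after the outer domain, as in leucine-rich repeat (LRR), S-domain, wall-associated, cysteine-rich, lectin and LysM kinases. A plant microRNA pairs with its target along most of its length, and the bases at positions 2 to 8 from its 5′ end are called the seed.

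The authors' deposited table held 193 microRNA names, which stand for 107 different sequences, 52 of known families and 55 numbered by the authors. A prefix common to all numbered names is left out here, so that they read m1788-5p and the like. All 193 names had an FDR below 0.05, the largest being 0.0493, so the table lists microRNAs already selected for a difference between the tissues. Of the 107 sequences in the authors' deposited table, 45 (42.1%) were higher in shoot tips. At least 1 receptor kinase locus was predicted for 104 of them, 43 higher and 61 lower in shoot tips. The other 3 were miR475b-3p with 157 predicted loci, m2141-5p with 85 and m0911-3p with 107.

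The sequences below are the 15 predicted for the most receptor kinase loci, the sequences with the most L-type lectin (miR164b, in a tie) and LysM (miR172b-3p) loci, and m0141-3p and m0862-3p. The last pair was chosen after its values were seen, because nearly all of its receptor kinase loci were LRR kinases. Capitals mark the seed, and letters are U or T as the deposited table gives them. The receptor kinase loci of the first 8 were mainly LRR kinases.
miR390a: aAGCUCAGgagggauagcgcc
miR403c-5p: uUUGUGCGuggaucugaggcc
miR171i: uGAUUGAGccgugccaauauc
m0793-5p: tTGATGGCtgctcaaaacttg
m1792-3p: tAGATACGggtgattgttgtg
m0094-3p: cTTGGAGAcaaataatgaaatt
m0141-3p: gGTAGATCgaccgtggattc
m0862-3p: aAAGCCTGtgggattagttgaggt

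The receptor kinase loci of the next 3 were mainly S-domain kinases, and both miR169 sequences have the seed AGCCAAG.
miR169ae: uAGCCAAGgacgacuugccca
miR169t: gAGCCAAGaaugacuugccgg
m1788-5p: gTGTGTTTgagttctggaattacc

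The remaining ones were spread over several subclasses or led a smaller one. Those smaller ones were wall-associated kinases (miR394b-3p and miR159e) and cysteine-rich kinases (miR171b and miR159d). Next came kinases described as FERONIA-type or by a locus number alone (miR482d-3p), L-type lectin kinases (miR164b) and LysM kinases (miR172b-3p). The 3 miR159 sequences shown have different seeds.
miR394b-3p: cUGUUGGUcucucuuuguaa
miR159c: aUUGGAGUgaagggagcucga
miR159d: cUUGGAUUgaagggagcuccu
miR159e: cUUGGGGUgaagggagcuccu
miR482d-3p: uUGCCGACcccacccaugccaa
miR171b: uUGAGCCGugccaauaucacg
miR164b: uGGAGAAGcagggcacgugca
miR172b-3p: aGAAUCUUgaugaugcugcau

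Each sequence had between 60 and 181 predicted loci, with a median of 141. The receptor kinases took a median of 5.59% of these. For miR390a, the microRNA that in Arabidopsis sets off secondary small RNAs that act on auxin response factors, they were 76 of 181 loci, or 42.0%. The next highest share was 17.8%, for miR169ae. In 19 sequences the share was 10% or more, and 13 of the 19 were higher in shoot tips in the authors' deposited table. miR390a thus stood far above every other sequence in this share.

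**Figure D1:**
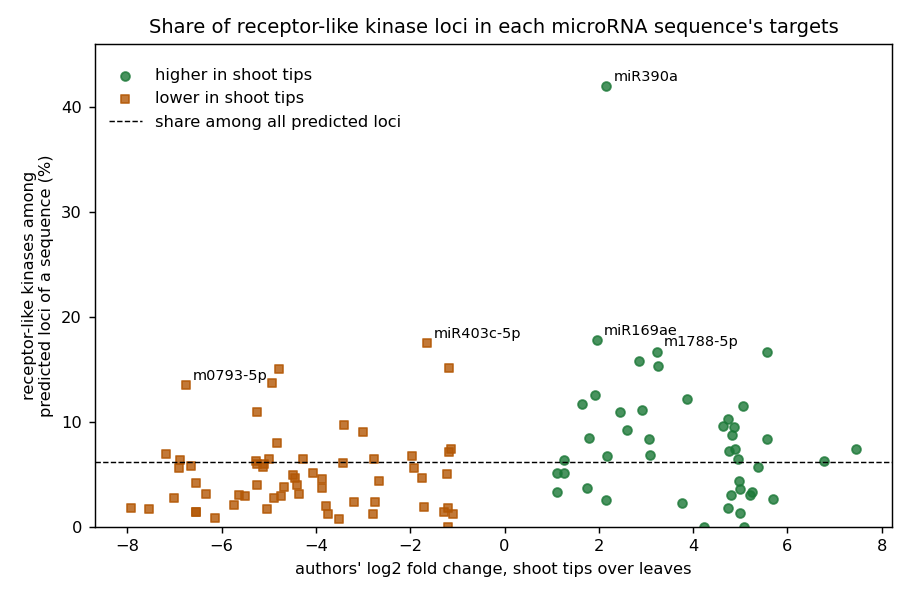
Share of receptor-like kinases among the predicted loci of each of the 107 microRNA sequences (vertical axis, percent) against the authors' log2 fold change, shoot tips over leaves (horizontal axis). Circles are sequences higher in shoot tips, squares those lower, and the dashed line is the share among all predicted loci (6.16%). miR390a stands at 42.0%, and every other sequence is at or below 17.8%.

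Counted by locus, 287 of the 635 receptor kinases (45.2%) had only microRNAs that were higher in shoot tips, against 32.2% of the other 9670 loci and 33.0% of all loci. MicroRNAs of both directions were predicted for 95 (15%), against 10.8% of the other loci and 11.1% of all. Only microRNAs lower in shoot tips were predicted for 253 (39.8%), against 57.0% of the other loci and 55.9% of all. The receptor kinases thus had a larger share of loci with only higher microRNAs than the other loci had. These are counts of predictions, with no test attached, because loci of 1 gene family share sequence and so share microRNAs.

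Counting each pair of a locus and a sequence gave 915 pairs, of which 484 (52.9%) had a sequence higher in shoot tips, against 38.0% of the pairs of other loci and 38.9% of all pairs. The median of the authors' log2 fold changes, shoot tips over leaves, was 1.27 over the receptor kinase pairs and -1.92 over the other pairs. Pairs with a numbered microRNA made up 41.4% of the receptor kinase pairs and 46.2% of the others. Pairs whose sequence was listed at 0 in 1 tissue made up 27.5% and 30.2%, and those with a 24-nt sequence 16.7% and 18.8%.

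The order of both directions rested on a few microRNAs. Without miR390, 586 receptor kinase loci were left, of which 238 (40.6%) had only microRNAs higher in shoot tips and 267 (45.6%) only lower ones. Among the other loci the same shares without miR390 were 31.8% and 57.6%. Without the miR159 and miR319 families the counts were 246 higher and 271 lower of 594. With loci of the same description and the same microRNAs counted once, they were 207 each of 503. In each of these counts the share with higher microRNAs alone was still above the 33.0% of all loci, but it no longer exceeded the share with lower ones.

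**Figure D2:**
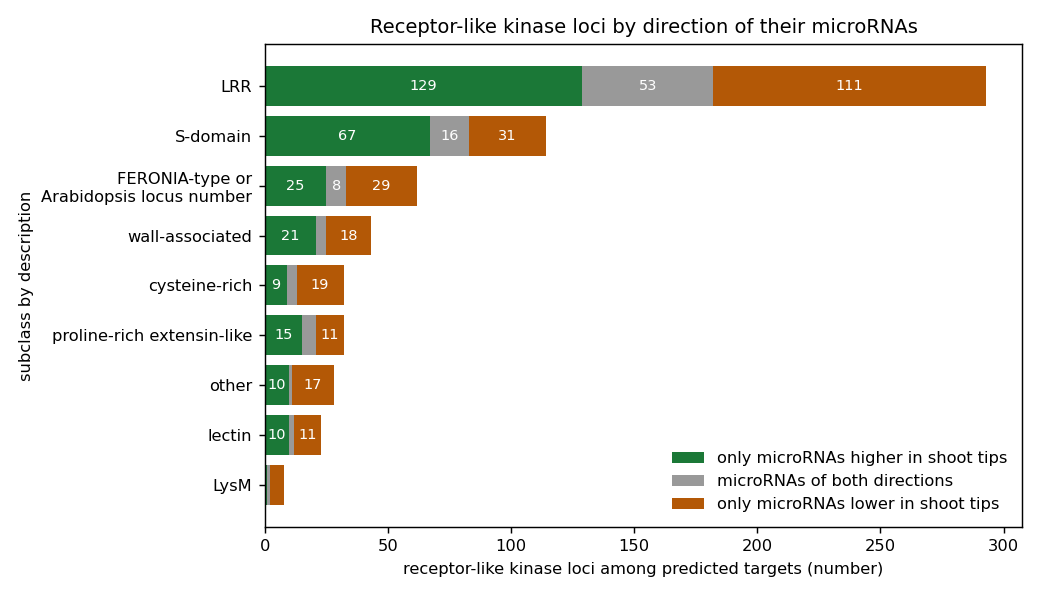
Number of receptor-like kinase loci in each subclass (horizontal bars), divided by whether their microRNAs were only higher in shoot tips, of both directions, or only lower in shoot tips by the authors' FDR below 0.05. S-domain loci have 67 higher against 31 lower, and cysteine-rich loci 9 higher against 19 lower.

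The 635 loci fell into 9 groups by description. LRR receptor kinases were 293 (46.1%) and S-domain kinases 114 (18.0%). A further 62 were described as FERONIA or ANXUR, or as a receptor-like protein kinase with only an Arabidopsis locus number. Wall-associated kinases were 43, cysteine-rich kinases 32, proline-rich extensin-like kinases (PERK) 32, L-type lectin kinases 23 and LysM kinases 8. The last 28 had other descriptions, among them 6 of ALE2, which in Arabidopsis is needed for the leaf surface, and 6 receptor-like serine/threonine-protein kinases with only a locus number. The groups follow the words of the description and not a phylogeny, so that some loci outside the LRR group, such as the 7 described by At3g47110, may carry leucine-rich repeats too.

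The leading 15 sequences gave 360 of the 915 pairs and reached 294 of the 635 loci. By the authors' deposited table, 10 of them were higher and 5 lower in shoot tips, and 4 were numbered. Each pooled tissue value is a mean over 2 libraries, and the reads of each library could be worked back from it for 94 of the 104 sequences. Which replicate each library is remains unknown, so they are called A and B. Their values below are normalized reads, the scale of the table, and not raw read counts. The libraries of both tissues did not overlap in any of the 94, as in all 97 recovered sequences of the table (100%). Since the table lists only microRNAs past an FDR threshold, this is no result about the receptor kinases.

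**Figure D3:**
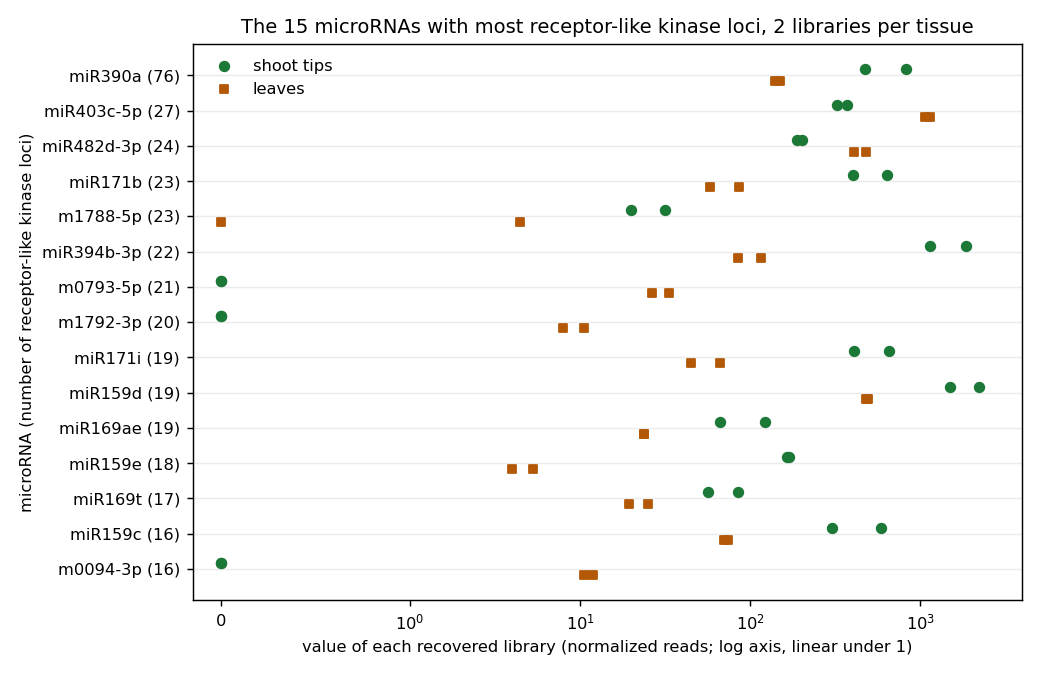
Normalized reads (log axis, linear under 1) of the 15 microRNA sequences predicted for the most receptor-like kinase loci, in each of the 2 recovered libraries of shoot tips (circles) and leaves (squares). The number of loci stands after each name. The tissues do not overlap for any of the 15, and m0793-5p, m1792-3p and m0094-3p are at 0 in both shoot tip libraries.

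LRR receptor kinases bind peptides and steroids through their repeats, and they were the largest group. Of the 293 loci, 129 (44.0%) had only microRNAs higher in shoot tips, 53 had both and 111 (37.9%) only lower ones. Among all loci the shares were 33.0% with only higher and 55.9% with only lower ones. In all, 89 sequences were predicted for them, 42 higher and 47 lower in shoot tips in the authors' deposited table. A single sequence, miR390a, was predicted for 65 (22.2%) of them. Without miR390, 252 LRR loci were left, with 88 higher, 40 of both directions and 124 lower. Among loci that are not receptor kinases, 31.8% were higher and 57.6% lower without miR390. Loci with only higher microRNAs thus outnumbered those with only lower ones in the LRR group with miR390 and not without it.

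miR390a had 475 and 826 normalized reads in the shoot tip libraries A and B, against 149 and 139 in leaf libraries A and B. Both shoot tip libraries were above both leaf libraries, by 4.51-fold in the pooled values. The authors' deposited table gave a log2 fold change of 2.16 with an FDR of 2.39e-07. Of its 76 receptor kinase loci 65 (85.5%) were LRR kinases, and 49 of the 76 had no other microRNA in the table.

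The miR390a loci were not spread evenly over descriptions. Loci described as RFK1 or At1g29720, which are close relatives in Arabidopsis, numbered 23, and miR390a was predicted for 19 of them. HSL1, a relative of the Arabidopsis abscission receptor HAESA, was the description of 10 loci, 5 of them with miR390a. GSO1 and GSO2 (GASSHO) are receptors that in Arabidopsis seal the root endodermis and the embryo surface, and 6 of their 25 loci had miR390a. Identifiers that begin with POPTR_0011 accounted for 21 of the 76 loci.

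The other microRNAs with mainly LRR kinases among their receptor kinase loci went in both directions. miR403c-5p, the 5′ strand of a family whose 3′ strand targets ARGONAUTE2 in Arabidopsis, had 327 and 374 normalized reads in shoot tips and 1137 and 1072 in leaves. The leaf libraries were both higher, and the authors' deposited table gave a log2 fold change of -1.65 with an FDR of 1.14e-06. Of its 27 receptor kinase loci 17 were LRR kinases. Loci described as At3g47570, a relative of EFR in Arabidopsis, made up 12 of the 27, out of 25 loci so described.

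miR171i, of the family that targets SCARECROW-like regulators, had 408 and 657 normalized reads in shoot tips and 45.0 and 66.4 in leaves. It was 9.55-fold higher in shoot tips by the pooled values of the authors' deposited table (FDR 1.30e-13). Of its 19 receptor kinase loci 13 were LRR kinases. All but 1 of those 13 were described as At5g48380, known in Arabidopsis as BIR1, a restraint on immune signalling: 12 of the 14 loci so described had miR171i. None of the 14 had a microRNA lower in shoot tips, while 33.0% of all loci had only higher ones.

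miR171b is the same family and shares a run of 18 bases with miR171i, shifted by 3 positions, yet it had a different set of receptor kinases. It had 404 and 641 normalized reads in shoot tips and 58.2 and 86.3 in leaves, both shoot tip libraries being higher. Of all predicted loci the pair shared 20, and of the 42 receptor kinases of either they shared 0. Those of miR171b were 7 S-domain, 5 cysteine-rich, 5 LRR and 3 lectin kinases among others.

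Several numbered microRNAs found in leaf libraries alone had mainly LRR kinases among their receptor kinase loci. Receptor kinases of any kind were 21 of the 156 loci predicted for m0793-5p, 20 of 146 for m1792-3p and 16 of 147 for m0094-3p. m0793-5p was at 0 in both shoot tip libraries and had 33.5 and 26.6 normalized reads in leaves. With 3 reads over both libraries as the limit, it was at least 21.0-fold lower in shoot tips (FDR 0.000103 in the authors' deposited table). Of its 21 receptor kinase loci 12 were LRR kinases, and it was predicted for 4 of the 8 loci of TMK1, a kinase of auxin signalling at the Arabidopsis cell surface.

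m1792-3p was likewise at 0 in both shoot tip libraries, with 10.6 and 7.97 normalized reads in leaves. It was at least 6.50-fold lower in shoot tips, with an FDR of 0.0335 in the authors' deposited table. LRR kinases were 17 of its 20 receptor kinase loci, and 9 of the 25 GSO1 and GSO2 loci were among them. m0094-3p, with 10.6 and 12 normalized reads in leaves and 0 in both shoot tip libraries, had 12 LRR kinases among 16. It shared 4 receptor kinase loci with m1792-3p and 5 with m0246-3p, a sequence with the same seed. At levels this low, a few reads decide a value.

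m0141-3p was predicted for 14 receptor kinases, all LRR kinases and all with identifiers that begin with POPTR_0019. It had 7.08 and 7.61 normalized reads in shoot tips and 93.5 and 67.7 in leaves, with an FDR of 4.08e-06 by the authors' deposited table. Of these loci 9 were described as At4g08850, known in Arabidopsis as MIK2, a receptor of immune peptides. m2472-5p, listed at 0 in shoot tips and at 8.62 in leaves in the authors' deposited table, had 9 receptor kinase loci, again all LRR kinases, and 5 were described as At4g08850. Of the 23 loci so described, 16 had only microRNAs lower in shoot tips, 5 had both and 2 only higher ones. Among all loci 55.9% had only lower ones.

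m0862-3p went the other way. It had 20.5 and 12.4 normalized reads in shoot tips and 0 in both leaf libraries, at least 8.24-fold higher in shoot tips (FDR 0.00606 in the authors' deposited table). LRR kinases were 12 of its 13 receptor kinase loci. They included the single locus described as CLAVATA1, POPTR_0005s26300, a BAM locus and 2 SERK loci. It was the only sequence in the table predicted for the CLAVATA1 locus.

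S-domain kinases, also called G-type lectin kinases, carry the outer domain known from pollen self-recognition in the cabbage family. Of the 114 loci, 67 (58.8%) had only microRNAs higher in shoot tips, 16 had both and 31 only lower ones. Among all loci 33.0% had only higher microRNAs. Their microRNAs were 29 higher and 26 lower sequences in the authors' deposited table, so the loci leaned further to the higher side than the sequences did. m1788-5p and both miR169 sequences were predicted for 29 of them (25.4%). Without those 3 sequences 93 S-domain loci were left, of which 46 had higher microRNAs alone, 13 both and 34 lower ones.

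miR169 is known to target nuclear factor Y subunits. miR169ae had 66.9 and 122 normalized reads in shoot tips and 23.8 and 23.9 in leaves, and the authors' deposited table gave an FDR of 0.00533. miR169t had 56.7 and 84.7 normalized reads in shoot tips and 19.4 and 25.2 in leaves, and the authors' deposited table gave an FDR of 0.0308. Both were higher in both shoot tip libraries than in either leaf library. Of 22 receptor kinases predicted for either, 14 were predicted for both, although the sequences differ at 5 of their positions. S-domain kinases were 12 of the 19 loci of miR169ae and 15 of the 17 of miR169t.

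m1788-5p, a 24-nt sequence, had 31.5 and 20.0 normalized reads in shoot tips and 4.41 and 0 in leaves. The leaf value comes from 5 reads of 1 library, and the pooled ratio in the authors' deposited table was 11.7 (FDR 0.0238). S-domain kinases were 19 of its 23 receptor kinase loci, and 5 of them also had a miR169 sequence. The description RKS1 shows how these microRNAs met: its 11 loci formed 30 pairs with 6 sequences, all higher in shoot tips. miR169ae and miR169t were each predicted for 9 of the 11, m1788-5p for 5 and miR171b for 4.

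The description with the most loci in the whole set, At4g27290, was an S-domain kinase with 40 loci. No single microRNA led it: 30 sequences were predicted, and the most frequent had 4 loci each. Of the 40 loci 21 had only microRNAs higher in shoot tips, 5 had both and 14 only lower ones. RLK1, with 19 loci, had 6 higher, 7 of both directions and 6 lower. Over all predicted loci, 33.0% had only higher microRNAs, 11.1% both and 55.9% only lower ones.

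**Figure D4:**
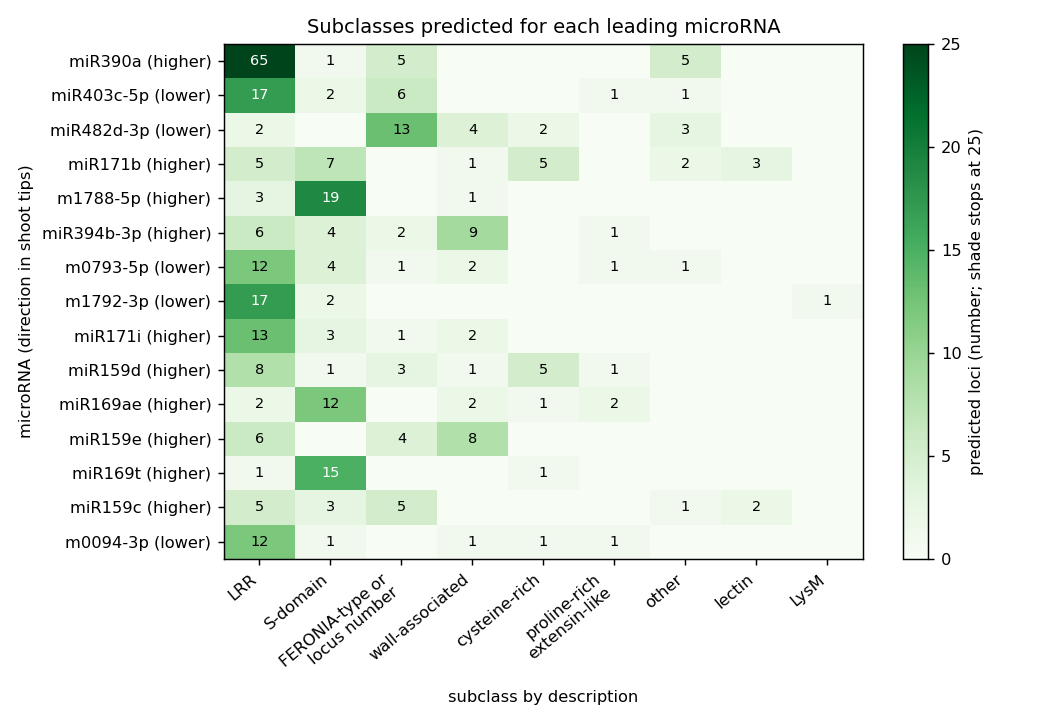
Number of receptor-like kinase loci of each subclass (columns) predicted for each of the 15 leading microRNA sequences (rows, with their direction in shoot tips). Shade follows the number and stops at 25. miR390a has 65 LRR loci, the miR169 sequences and m1788-5p have 12, 15 and 19 S-domain loci, and miR482d-3p has 13 loci in the FERONIA-type or locus number column.

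Wall-associated kinases reach into the cell wall and bind pectin in Arabidopsis. Of the 43 loci, 21 (48.8%) had only microRNAs higher in shoot tips, 4 had both and 18 (41.9%) only lower ones, beside 33.0% and 55.9% of all loci. miR394b-3p, the 3′ strand of a family whose 5′ strand targets the F-box gene LCR in the Arabidopsis meristem, was predicted for 9. It had 1138 and 1861 normalized reads in shoot tips and 116 and 85.0 in leaves, 14.9-fold higher in shoot tips by the authors' deposited table (FDR 1.18e-23). All 4 loci described as wall-associated kinase-like 22 were among the 9.

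The miR159 and miR319 families, related families that target MYB and TCP factors, also met this group. miR159e was predicted for 8 wall-associated loci and had 170 and 165 normalized reads in shoot tips and 5.29 and 3.98 in leaves. Both shoot tip libraries were far above both leaf libraries, 36.1-fold in the pooled values of the authors' deposited table. miR319i was predicted for 6 and had 894 and 1184 normalized reads in shoot tips and 126 and 118 in leaves. Of the receptor kinases of miR394b-3p and miR159e, 3 were shared.

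The miR159 sequences differed in their receptor kinases as well as in their seeds. miR159d had 1501 and 2235 normalized reads in shoot tips and 483 and 495 in leaves, and its 19 loci held 8 LRR and 5 cysteine-rich kinases. miR159c had 302 and 586 normalized reads in shoot tips and 74.1 and 70.4 in leaves, and its 16 loci held 5 LRR and 5 FERONIA-type or locus number kinases. Each was higher in both shoot tip libraries than in either leaf library. miR159a has the seed of miR159d, and of 26 receptor kinases of either, 7 were shared.

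FERONIA and its relatives sense RALF peptides and wall integrity in Arabidopsis. The names FERONIA (5 loci) and ANXUR1 or ANXUR2 (3 loci), which act in the pollen tube, described 8 loci. None of the 8 had only microRNAs higher in shoot tips, 1 had both and 7 had only lower ones, beside 55.9% with only lower ones among all loci. The 8 were found by name alone, so they do not stand for the whole family. Any relatives described only by a locus number are among the 54 loci counted below, of which 25 were higher. A further relative, HERK1, was counted among the other descriptions, and its 1 locus had miR482d-3p alone. miR482d-3p or miR482c-3p, of a family known for targeting immune receptor genes, was predicted for 7 of the 8. miR482d-3p was predicted for 4 of the 5 FERONIA loci and miR482c-3p for all 3 ANXUR loci.

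miR482d-3p had 189 and 202 normalized reads in shoot tips and 409 and 483 in leaves. The leaf libraries were both higher, by 2.28-fold in the pooled values, and the FDR in the authors' deposited table was 0.00399. Of its 24 receptor kinases 13 were FERONIA-type or locus number kinases and 4 wall-associated ones. The 54 loci described as a receptor-like protein kinase with a locus number were divided into 25 higher, 7 of both directions and 22 lower. These stand beside 33.0%, 11.1% and 55.9% of all loci.

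Cysteine-rich kinases, a family that responds to infection and oxidative stress in Arabidopsis, leaned the other way from the S-domain group. Of the 32 loci, 9 had only microRNAs higher in shoot tips, 4 had both and 19 (59.4%) only lower ones. That share is near the 55.9% of all loci. miR171b, miR159d and miR171l-5p were each predicted for 5 of them. Cysteine-rich kinase 10 was the description of 16, of which 5 were higher, 1 of both directions and 10 lower.

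The PERK group, whose members have a wall-like proline-rich outer domain, had 15 loci with only higher microRNAs, 6 with both and 11 with only lower ones. Its 48 pairs came from 35 sequences, and no sequence had more than 3 of its 32 loci. One of these was miR160a, a regulator of auxin response factors, with 223 and 309 normalized reads in shoot tips and 116 and 104 in leaves. L-type lectin kinases had 10 higher, 2 of both directions and 11 lower. Only higher microRNAs were predicted for 46.9% of the PERK and 43.5% of the lectin loci, against 33.0% of all loci.

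The lectin loci were met by miR164b, which targets NAC factors that set organ boundaries, in 3 cases. miR164b had 121 and 195 normalized reads in shoot tips and 1235 and 1321 in leaves, with a log2 fold change of -3.0 in the authors' deposited table (FDR 2.12e-16). miR171b, higher in shoot tips, was also predicted for 3 of the 23.

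LysM kinases detect chitin and symbiotic signals, and 6 of the 8 loci had only microRNAs lower in shoot tips, with 1 of both directions and 1 higher. Among all loci 55.9% had only lower microRNAs. Those of the LysM loci were microRNAs of several families. miR172b-3p, which targets AP2-type factors, had 14.2 and 42.8 normalized reads in shoot tips and 466 and 655 in leaves, and it was predicted for 2 loci with adjacent identifiers, POPTR_0008s03720 and POPTR_0008s03730. All 4 miR396 sequences of the table were predicted for POPTR_0001s19110, and they count as 1 family. miR398c-3p, at 77.4 in shoot tips and 19229 in leaves in the authors' deposited table, was predicted for POPTR_0010s23180.

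Receptors with known functions were looked up from a list of 28 names, of which 17 had at least 1 locus. Only names written in the descriptions were found, so the At5g48380 loci (BIR1) and receptors left out by the member rule were missed. The small counts below stand beside 33.0% of all loci with only higher and 55.9% with only lower microRNAs. Among the meristem and development receptors, the 6 BAM loci, relatives of CLAVATA1, were 1 higher, 1 of both directions and 4 lower. RPK2, which acts beside CLAVATA1 in Arabidopsis, had 4 loci, 2 higher, 1 of both directions and 1 lower, and POPTR_0008s09590 among them had miR390a. TDR, the receptor of vascular CLE peptides also called PXY, had 1 locus of each direction. The 8 TMK loci were 1 higher, 2 of both directions and 5 lower. No locus was described as ERECTA, HAESA or CRINKLY4, which says only that the descriptions here did not hold these names. Both loci described as FEI1, a kinase of cell wall synthesis in Arabidopsis roots, had miR319b and miR319i, higher in shoot tips, beside 1 microRNA that was lower.

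Few loci under the member rule were described as hormone receptors or co-receptors. The rule left out receptors described without the word kinase, among them 3 systemin receptor loci and 2 of phytosulfokine receptor 2. The single locus described as a BRI1-type kinase, POPTR_0003s02080, had m0070-3p and m1792-3p, both listed at 0 in shoot tips in the authors' deposited table. The single BAK1 locus, POPTR_0001s21420, had miR482c-3p and miR482d-3p, both lower in shoot tips. BAK1 is the shared co-receptor of the SERK family, and the other SERK loci numbered 7, of which 4 were higher and 3 lower.

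Among immune receptors, both FLS2 loci (bacterial flagellin) had a microRNA lower in shoot tips, miR473a-3p and miR397a. miR473a-3p had 33.8 and 36.2 normalized reads in shoot tips and 139 and 316 in leaves. miR397a was at 0 in both shoot tip libraries and had 47.7 and 54.5 normalized reads in leaves. Of the EFR loci (bacterial elongation factor) 1 was higher and 1 of both directions. PEPR1, a receptor of danger peptides, had 1 locus, POPTR_0012s02990, predicted for miR390a, m2305-5p, miR6427-5p and miR6459b. SOBIR1, the partner of receptor-like proteins, had 1 locus with m2221-5p and m2305-5p, both higher in shoot tips.

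Most receptor kinase loci had few microRNAs: 430 had 1 sequence, 146 had 2, 46 had 3, 10 had 4 and 3 had 5. The mean was 1.44 sequences per locus, against 1.37 in the other loci. At least 2 were predicted for 205 (32.3%), against 25.4% of the other loci and 25.8% of all. At least 3 sequences of at least 2 families were predicted for 55 (8.66%), against 6.34% of the other loci and 6.48% of all. In 34 of the 55 the microRNAs went in both directions, in 13 all were higher and in 8 all were lower in shoot tips. LRR kinases were 31 of the 55 and S-domain kinases 14.

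The 3 loci with 5 sequences were POPTR_0027s00300 (GSO1), POPTR_0012s08510 (PERK10) and POPTR_0006s05020 (At2g41820). At POPTR_0012s08510 all 5 were higher in shoot tips: m2305-5p, miR159a, miR159d, miR319b and miR319e. The last 4 are near copies, so that the locus has fewer independent predictions than sequences. miR319b averaged 84092 in shoot tips and 468 in leaves and miR159a 317047 in shoot tips and 90908 in leaves in the authors' deposited table. At POPTR_0027s00300, m0070-3p, m0094-3p and m1792-3p were lower and miR159e and miR319e higher in shoot tips.

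Many of the loci stood near each other by identifier, as copies of 1 gene often do. Loci with the same identifier beginning and numbers at most 200 apart formed 51 runs of at least 3, which held 270 of the 635. The beginning POPTR_0011 had the most loci, 90, of which 42 were S-domain kinases. The next, POPTR_0001, had 61.

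The longest run reached from POPTR_0011s06140 to POPTR_0011s06690. It held 19 loci, of which 18 were LRR kinases and 16 had miR390a, and 17 had only microRNAs higher in shoot tips. Of the S-domain runs, POPTR_0011s02070 to POPTR_0011s02200 held 11 loci, 8 of them with miR169ae, 8 with miR169t and 6 with m1788-5p. POPTR_0011s03600 to POPTR_0011s03920 held 14 loci, 9 of them with m1788-5p. None of the loci in these 2 runs had a microRNA lower in shoot tips. Over all predicted loci, 33.0% had only higher microRNAs and 55.9% only lower ones. The longest S-domain run, POPTR_0011s12830 to POPTR_0011s13260, held 18 loci, of which 15 had only higher microRNAs and 3 only lower ones. Its most frequent microRNA, miR171b, had 3 of the 18.

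Other runs differed. The 12 S-domain loci from POPTR_0001s42020 to POPTR_0001s42340 were 1 higher, 5 of both directions and 6 lower. Over all predicted loci the shares were 33.0%, 11.1% and 55.9%. The 7 LRR loci from POPTR_0027s00200 to POPTR_0027s00470 were met by m1792-3p in 5 cases and m0070-3p in 4, and none had only higher microRNAs. From POPTR_0003s18230 to POPTR_0003s18480, 8 loci with 7 wall-associated kinases had miR159e and miR319i in 4 cases each. In 33 of the 51 runs 1 microRNA had at least 50% of the loci, and in 12 no microRNA had more than 1 locus. Each run counts as several loci in the shares given above.

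Parts that act with these receptors were counted from lists of descriptions. Receptor-like proteins without a kinase numbered 26, of which 13 had only microRNAs higher in shoot tips, 2 had both and 11 only lower ones. Receptor-like cytoplasmic kinases such as PBS1, which pass the signal on, numbered 12, with 6 higher, 1 of both directions and 5 lower. Downstream, 29 loci of the mitogen-activated protein kinase cascade were 11 higher, 2 of both directions and 16 lower. Of 3 respiratory burst oxidases, which make the oxidative burst, 2 were higher and 1 lower. Of 7 loci found by words of peptide ligands, 6 were higher and 1 lower, but 2 of these were phytosulfokine receptor 2 loci, both with miR390a. Of 11 calcium-dependent protein kinases 3 were higher and 8 lower, and of 11 CBL-interacting kinases 2 were higher and 9 lower. The 26 U-box ligases, a class that marks receptors for removal, were 5 higher, 6 of both directions and 15 lower. All of these lists can be read against the predicted loci as a whole. Of those, 33.0% had only higher microRNAs, 11.1% both and 55.9% only lower ones.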

How the data were processed

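RNA was isolated with Trizol and a kit for plant RNA, and libraries followed standard Illumina steps, per the labels' protocols. Which tools trimmed, aligned, counted, scaled and tested the reads and predicted targets is not stated in the labels. The authors deposited 1 table with 1 line per microRNA and predicted locus, 27252 in all, of which 1215 repeated another. The signal of each tissue was normalized by the authors from the reads of both libraries, on a scale they do not state. The log2 fold change, shoot tips over leaves, was computed by the authors before the table was deposited. The FDR, a p-value adjusted by the authors, came with it in the deposited table. A count test was planned for deposited counts per library, and no column held these, so the authors' FDR below 0.05 was used. No test was run on the recovered reads described next, since they cover only microRNAs already selected by that FDR.

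Names with 1 sequence were read once, under the name with the smallest FDR. Their values can differ: the 4 names of the miR319b sequence had 84092 to 92273 in shoot tips and 468 to 728 in leaves. Their log2 fold changes ran from 6.96 to 7.46, and those of the miR319e sequence from 5.47 to 6.77. Reads per library were worked back from signals up to 5000, as whole multiples of 2 steps per tissue, 0.787 and 0.952 in shoot tips and 0.882 and 1.33 in leaves. Finer steps also fitted. The procedure was tested on simulated data. Depth per library is not stated, and counting error at 3 reads or fewer is large. A fold against a tissue listed at 0 used 3 reads over both libraries, 1.43 in shoot tips and 1.99 in leaves.

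Described microRNAs were the 15 sequences with the most loci and those that led a subclass; any others were picked with values in view. The members and lists were chosen with earlier results of these data known. Of the 635 loci 0 matched the reference gene table, so no positions are given. Alternatives changed the FDR threshold, the signal minimum, a pseudocount of 1, the families counted and the member rule. Python 3.11.15, numpy 2.4.6, pandas 2.3.3 and matplotlib 3.10.9 were used.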

Additional observations from a re-analysis of the deposited data

How the results depend on the processing

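The share of receptor kinase loci with only microRNAs higher in shoot tips, 45.2%, was 47.0% at an FDR below 0.01 and 47.4% with a signal of at least 10. It was 54.9% with known families alone, 40.6% without miR390 and 41.2% with each description and microRNA set once. Without miR169 and m1788-5p it was 42.5%, and without miR159 and miR319 41.4%. The other loci had 32.2%, and 26.2% at the stricter FDR, 32.7% with the signal minimum and 31.4% with known families. They had 31.8% without miR390, 30.7% without miR169 and m1788-5p, and 29.3% without miR159 and miR319. A different share, that of pairs with a higher sequence, was 52.9%, against 38.0% for the other loci. The share of receptor kinases among all loci, 6.16%, was 7.03% with known families alone, 6.63% at an FDR below 0.01 and 7.78% among described loci. LRR kinases, 46.1%, were 36.1% (229 of the same 635 loci) with 64 loci of receptors listed by name not counted as LRR. This was done whether or not their descriptions also hold LRR words. The mean of 1.44 sequences per locus was 2.88 with names in place of sequences.

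All 104 sequences differed by over 2-fold between tissues, also with a pseudocount of 1. When values were rescaled to a total that leaves out both miR159 and miR319, 96 did. This rescaling moves every log2 fold change up by 0.70. Then miR482d-3p was -0.49 and miR403c-5p -0.95. The rescaling assumed the same fixed total of normalized reads in both tissues, because the authors do not state their scale. The 96 sequences and the shift of 0.70 rest on that assumption. So does each rescaled value, also where it is counted among the alternatives below. Leaving out 1 recovered library left 91 to 94 of 94, the lowest without shoot tip library A, when miR6427-5p, miR171l-5p and miR403a fell under 2-fold. Of 42 alternatives for single microRNAs with recovered libraries 25 moved the log2 fold change by more than the spread between libraries. Of 12 without recovered libraries 11 changed the value, and 0 of all 54 reversed. No reversal could have occurred, because a pseudocount of 1 keeps the order of both tissues. The shift of 0.70 is also below the smallest absolute log2 fold change, 1.096. The alternatives miR390, miR169 with m1788-5p, pairs and single libraries were added after the data were seen. No paired analysis was possible because the table has no column per library. Depth limits sequences under about 10 reads most.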
